A study of Homo sapiens with 4 samples.

Results

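The interferon-induced effectors described here are OAS1, OAS2, OAS3, OASL, MX1, ISG15, ISG20, IFI6, IFI44 and BST2, 10 genes chosen by name among the 19871 gene rows used. The choice was made with earlier results of these data known. All 10 had a row and all 10 passed the filter on low values. They were measured by RNA-seq in DU145, an established human prostate cancer cell line grown in medium with 10% fetal bovine serum. Control cells carried the lentiviral hairpin vector pLKO (2 libraries, called control 1 and control 2), and TAZ knockdown cells carried hairpins against TAZ (2 libraries, knockdown 1 and knockdown 2). By the series' design text the knockdown used 2 independent hairpins, and the labels do not say which library holds which, nor whether the pLKO vector was empty. The labels do not tell whether the libraries of a group are separate cultures. The p-values therefore measure only the spread between the deposited libraries. That spread may be technical, and in knockdown it may include differences between hairpins. In the limma tests each gene's spread is also drawn towards that of genes at a similar level. WWTR1 encodes TAZ, which Hippo signalling restrains and which works with DNA-binding factors to switch on genes. By its title the series sought the genes that TAZ targets.

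Type I and type III interferons act through receptor-bound JAK kinases, which activate STAT proteins. With IRF9 these form a complex that binds the interferon-stimulated response element, a DNA motif with repeated GAAA blocks, near the start of its target genes. OAS1, OAS2 and OAS3 sense double-stranded RNA and make short oligoadenylates that act as a signal of infection, while OASL is a family member without that activity that aids the RNA sensor RIG-I. MX1 is a GTPase that blocks viral nucleocapsids, ISG15 is a ubiquitin-like modifier, ISG20 is an exonuclease, BST2 (tetherin) holds budding virions at the cell surface, IFI6 is a membrane protein with antiviral activity, and IFI44 is an interferon-induced protein of the cytoplasm. Many epithelial cells keep a low level of these transcripts without added interferon.

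Promoter windows of 300 bases (250 before and 50 after the annotated start) were given by RefSeq for 8 of the 10 genes, on GRCh38.p14. OAS2 and OASL are not shown. The windows were searched on both strands for the core of the interferon-stimulated response element, spelled GAAA, then any 2 bases, then GAAA. It was found in 7 of the 8 genes, and in 3.57% of 35116 RefSeq promoter windows of the same length. A gene was counted if any of its windows held a match, while the 3.57% is a share of single windows. The choice of genes used no sequence, but it took genes known to be interferon-induced, which this motif goes with. The sites are shown as background. Capitals mark the matched bases, each line runs 5′ to 3′ on the gene's strand, and TTTC blocks are the same motif on the other strand.
ISG15, chr1:1013364-1013419, plus strand: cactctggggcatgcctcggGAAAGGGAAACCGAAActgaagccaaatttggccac
IFI6, chr1:27672256-27672368, minus strand: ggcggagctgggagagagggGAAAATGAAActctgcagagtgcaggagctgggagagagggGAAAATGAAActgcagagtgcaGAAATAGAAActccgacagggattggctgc
IFI44, chr1:78649751-78649800, plus strand: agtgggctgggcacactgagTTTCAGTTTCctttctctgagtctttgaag
OAS3, upstream site, chr12:112938311-112938360, plus strand: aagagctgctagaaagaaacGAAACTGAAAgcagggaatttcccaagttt
OAS3, downstream site, chr12:112938442-112938473, plus strand: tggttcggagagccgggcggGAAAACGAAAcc
ISG20, chr15:88638927-88638976, plus strand: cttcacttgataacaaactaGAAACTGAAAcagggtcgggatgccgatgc
BST2, chr19:17405725-17405780, minus strand: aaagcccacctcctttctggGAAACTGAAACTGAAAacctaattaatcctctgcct
MX1, chr21:41420559-41420588, plus strand: gagcagaaatGAAACCGAAActgaattgtc
OAS1, shorter motif, chr12:112906925-112906961, plus strand: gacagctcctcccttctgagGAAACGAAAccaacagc

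In ISG15 and BST2 the capitals were 2 overlapping matches that formed a run of 16 bases, beginning 113 and 130 bases before the start. IFI6 held 3 separate matches, beginning 156, 115 and 93 bases before it, and the sites of ISG20 and OAS3 lay 69, and 143 and 12, bases before it. IFI44 has 2 annotated starts that share 1 site. MX1 has 3, of which 2 held a match; the site shown lies 12 bases past 1 of these starts. The OAS1 window held no such match, and after this was seen a form with a single base between the blocks, GAAANGAAA, was searched. It was found in OAS1, 17 bases before the start, and in 3.12% of all windows. IFI44, OAS3 and MX1 also held GAAANGAAA, in each overlapping a match of the first motif at least once. A match is a run of letters in the reference genome and no measure of binding in DU145.

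The targeted gene was lower in both knockdown libraries. WWTR1 had normalised counts of 2508 (control 1), 3626 (control 2), 839 (knockdown 1) and 719 (knockdown 2), and limma, fitted over all 17737 genes tested, gave an adjusted p of 0.0086. The reads recovered from the table numbered 11687727 to 14814918 per library. limma called 1 gene higher and 1 lower over all genes. The epithelial markers EPCAM, KRT8, KRT18, KRT19 and CDH1 were present in every library, with a summed level of 35510 and 50144 in controls and 32901 and 22380 in knockdown. The keratins make up most of that sum: KRT8 and KRT18 had both knockdown libraries under both controls, while EPCAM, at 520.4 and 661 against 709 and 1061, and CDH1, at 820.02 and 1329 against 2296 and 1355, had them above. Of the leukocyte markers, PTPRC had 1 read in all libraries together, and CD14 had 28.8, 15.0, 13.3 and 6.25 in control 1, control 2, knockdown 1 and knockdown 2, the same direction as the effectors. Endothelial markers summed to 9.28 and 20.7 in the controls and 7.08 and 3.13 in knockdown, and fibroblast markers to 105 and 54.1 against 171 and 157. COL1A1 makes up most of the fibroblast sum, at 85.3 and 36.8 against 135 and 147. COL1A2, at 9.28 and 13.8 against 28.3 and 5.21, and PDGFRB, at 9.28 and 2.30 against 6.20 and 2.08, had groups that overlapped. COL3A1 was higher in knockdown but at 3.13 or less in every library. The part of these levels in the results was not tested. The control libraries stood apart from each other in the interferon-induced genes, so values below are given per library or against each control separately. The limma results, the group means and medians given without a named control take both controls together.

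None of the 10 effectors passed limma over all genes, where 0.00564% of genes were called lower, and 0 of the 9 with an adjusted p (all but BST2) passed in the authors' deposited DESeq2 table, where 0.0868% were. Their means were all lower in knockdown, at 10 of 10 genes against 51.0% of genes tested. The median log2 difference was -0.86 against -0.01 over all genes tested. An unadjusted limma p under 0.05 with a lower mean was reached by 8 of the 10, against 2.72% of genes tested. The 10 genes were chosen with earlier results of these data known and were measured in the same libraries. Their counts here are therefore a description and not separate evidence. All 10 had their lowest value in knockdown 2, as did 28.7% of genes tested, and 9 of 10 had their highest in control 1, as did 27.0%. With both knockdown libraries set against both controls, 5 of 10 lay below (OASL, ISG20, BST2, IFI6 and IFI44), against 19% of genes tested. In bulk RNA, fewer cells that express a gene and less of its RNA per cell cannot be told apart. With 2 libraries a group, an exact permutation test of a single gene cannot go below a two-sided p of 0.333.

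**Figure D1:**
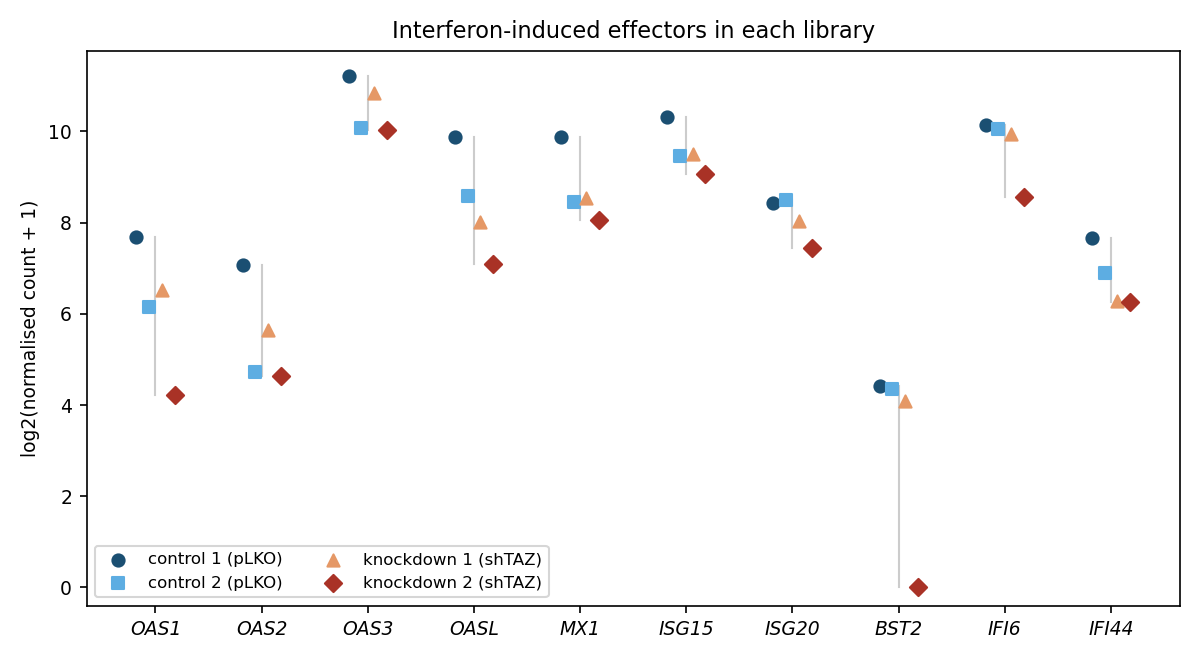
Normalised counts of the 10 genes on a log2(value + 1) axis, 1 point per library (2 pLKO controls and 2 TAZ knockdown libraries), with a grey line over the range. Knockdown 2 is the lowest point for all 10 genes, and control 1 is the highest for all but ISG20.

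Read against each control, the counts differed. Both knockdown libraries lay below control 1 for 10 of 10 genes (36.8% of genes tested), and below control 2 for 5 of 10 (37.0% of genes tested). Knockdown 2 was below both controls for 10 of 10 (34.9% of genes tested) and knockdown 1 for 5 of 10 (31.0%). Some of these gaps were small. OAS2 had 22 reads in control 2 and 23 in knockdown 2, and OAS3 in knockdown 2 was at 96.4% of control 2. BST2, counted for knockdown 1, had 17 reads in control 2 and 18 in knockdown 1. The median log2 difference over the 10 genes was -0.98 for knockdown 1 minus control 1 and -1.70 for knockdown 2 minus control 1. Against control 2 it was -0.03 for knockdown 1 and -0.85 for knockdown 2. The controls themselves differed by a median of -0.99 (control 2 minus control 1), as much as knockdown 1 differed from control 1. Over all genes tested each of these 5 medians lay between -0.01 and 0.01. These differences share control libraries and are given side by side, not as separate evidence.

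A lower value by at least 1.5-fold on the log2(value + 1) scale was seen against control 1 in 6 genes for knockdown 1 (11.7% of genes tested, and 5.99% of those with a mean of at least 10, which all 10 genes reached) and in 10 for knockdown 2 (14.3% and 9.35%). Against control 2 it was seen in 2 genes for knockdown 1, OASL and IFI44 (9.39% and 4.18%), and in 6 for knockdown 2 (14.3% and 9.6%). Control 2 was itself at least 1.5-fold below control 1 in 7 genes (13.9% and 9.0%), which were OAS1, OAS2, OAS3, OASL, MX1, ISG15 and IFI44. In ISG20, BST2 and IFI6 the controls were within 1.5-fold of each other. Knockdown 2 was at least 1.5-fold below knockdown 1 in 7 genes (11.3% and 6.73%), which left MX1, ISG15 and IFI44.

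**Figure D2:**
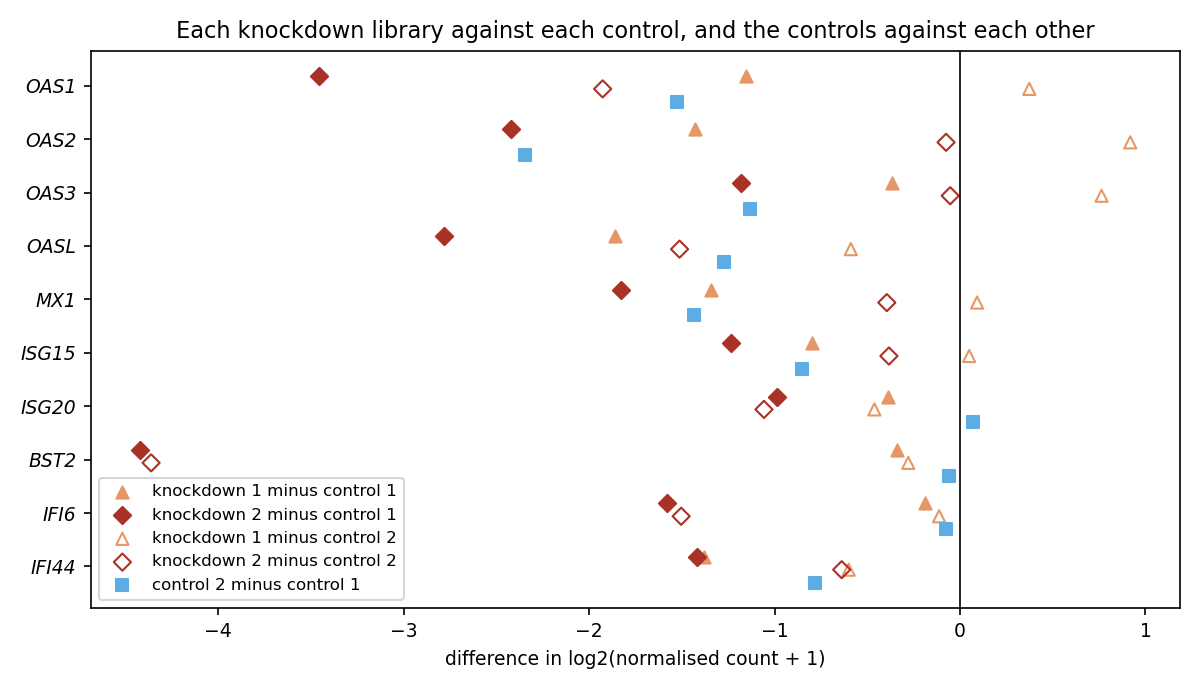
Difference in log2(normalised count + 1) for each knockdown library minus control 1 (filled) and minus control 2 (open), and for control 2 minus control 1 (squares), 1 point per gene. Filled points all lie below 0, while the open triangles of OAS1, OAS2, OAS3, MX1 and ISG15 lie above it.

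Among the oligoadenylate synthetases and their relative OASL, the libraries were spread unevenly. Control 1 had 204 normalised counts of OAS1, control 2 had 70.2, knockdown 1 had 91.2 and knockdown 2 had 17.7, from 17 reads. Knockdown 1 lay between the controls, and knockdown 2 was at 25.3% of the lower control. The group means were 137 ± 94.7 and 54.5 ± 52.0 (SD, n = 2 each), a log2 difference of -1.54 ± 0.66 (SE; limma adjusted p = 0.692). Leaving out control 1 made the OAS1 difference -0.78, and leaving out control 2 made it -2.30. Leaving out knockdown 1 gave -2.69, and leaving out knockdown 2 gave -0.39. Within the knockdown pair, knockdown 2 was at 19.4% of knockdown 1, a wider gap than between the controls, where control 1 was 2.91-fold above control 2.

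OAS2 had 133 and 25.3 in the controls and 48.7 and 24.0 in knockdown 1 and 2, which were 143, 22, 55 and 23 reads. Control 1 was the highest, knockdown 1 was at 192% of control 2, and knockdown 2 was at 94.7% of it. Its log2 difference of -0.75 ± 0.64 (SE; limma adjusted p = 0.838) was 0.42 without control 1. OAS3, the largest of the family, had 2365 and 1080.1 in the controls and 1834 and 1041 in knockdown. The groups overlapped: knockdown 1 lay between the controls, at 170% of control 2, and knockdown 2 lay below both, at 96.4% of control 2. Its log2 difference was -0.21 ± 0.34 (SE; limma adjusted p = 0.927), and 0.36 without control 1 and 0.20 without knockdown 2. By RefSeq OAS1, OAS3 and OAS2 are consecutive protein-coding genes on chromosome 12, while OASL lies elsewhere on it.

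OASL was the family member whose groups did not overlap. Its counts were 932 and 385 in the controls and 256 and 134 in knockdown 1 and 2. Both knockdown libraries lay below both controls, at 66.4% and 34.9% of control 2. The group means were 659 ± 387 and 195 ± 85.9 (SD, n = 2 each), or 29.6% of control, the lowest share among the 10 genes. The log2 difference was -1.69 ± 0.39 (SE), with an unadjusted limma p of 0.00117 and a limma adjusted p of 0.355. The difference was -1.05 without control 1 and -1.22 without knockdown 2. In the authors' deposited table its log2 fold change was -0.41 with an adjusted p of 0.645. The fold changes there are smaller than the ratio of the group means for all 10 genes.

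MX1 and ISG15 shared a pattern in which control 1 was high and the other libraries were closer together. MX1 had 945 and 349.7 in the controls and 373 and 266 in knockdown 1 and 2. Knockdown 1 lay above control 2, at 107% of it, and knockdown 2 below, at 76.0%. The log2 difference of MX1 was -0.87 ± 0.37 (SE; limma adjusted p = 0.692), and -0.15 without control 1. ISG15 had 1265 and 702 in the controls and 726 and 538 in knockdown, with knockdown 1 at 103% and knockdown 2 at 76.6% of control 2. The log2 difference of ISG15 was -0.59 ± 0.26 (SE; limma adjusted p = 0.699), and -0.17 without control 1.

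ISG20, IFI6 and BST2 were the genes whose controls were close to each other. ISG20 had 341 and 359 in the controls and 260.3 and 172 in knockdown 1 and 2. Both knockdown libraries were below both controls, at 72.5% and 47.9% of control 2. The group means of ISG20 were 350.1 ± 12.4 and 216 ± 62.5 (SD, n = 2 each), with a log2 difference of -0.72 ± 0.24 (SE; limma adjusted p = 0.605) that was -0.76 without control 1 and -0.43 without knockdown 2.

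IFI6 had 1126 and 1069 in the controls and 988 and 376 in knockdown 1 and 2. Knockdown 1 was within 10% of control 2, at 92.5% of it, and knockdown 2 stood apart at 35.2%. The group means of IFI6 were 1097 ± 40.7 and 682 ± 433 (SD, n = 2 each). Its log2 difference was -0.85 ± 0.34 (SE; limma adjusted p = 0.687), and without knockdown 2 it was -0.15. The groups did not overlap, though knockdown 1 alone lay close to the controls.

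BST2 was near the limit of detection. It had 20.4 and 19.6 normalised counts in the controls, 15.9 in knockdown 1 and 0 in knockdown 2, which were 22, 17, 18 and 0 reads. The exact 95% Poisson intervals of the first 3 values overlapped, at 12.8 to 30.9, 11.4 to 31.3 and 9.45 to 25.2. For the 0 of knockdown 2 the same interval reached 3.69 reads, or 3.84 normalised counts. A tighter limit of 3 reads, or 3.13 normalised counts, was set for it. Set against that limit, the values of control 1, control 2 and knockdown 1 were 6.53-fold, 6.25-fold and 5.10-fold higher, ratios that leave out the counting error of these 3 values. The intervals and the limit cover counting error only, and reads copied by PCR are not independent molecules. BST2 did not pass limma (adjusted p = 0.694), and its fitted difference was -2.35 with the 0 as deposited, -1.33 with it at that limit and -0.31 without knockdown 2.

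IFI44 was the gene with the most alike knockdown libraries. It had 202 and 117 in the controls and 77.0 and 75.0 in knockdown 1 and 2. Both lay below both controls, at 65.7% and 64.0% of control 2. The group means of IFI44 were 159.8 ± 60.0 and 76.0 ± 1.41 (SD, n = 2 each), with a log2 difference of -1.01 ± 0.31 (SE), an unadjusted limma p of 0.00720 and a limma adjusted p of 0.567. It was -0.62 without control 1 and -0.99 without knockdown 2. In the authors' deposited table IFI44 had the smallest adjusted p of the 9 genes given one there, at 0.298.

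Levels between genes were compared as normalised counts per kilobase of the longest protein-coding transcript, averaged over the 4 libraries. IFI6 and ISG15 were highest, at 1058 and 1026 per kilobase, above 95.0% and 94.7% of genes tested that had a length. OAS3 followed at 235, ISG20 at 153, MX1 at 139 and OASL at 131. IFI44 was at 69.9, OAS1 at 39.6, BST2 at 13.7 and OAS2 at 12.2 per kilobase. In this order the ranges over libraries of every neighbouring pair overlapped except those of ISG15 and OAS3, at 683 to 1608 against 155 to 352. OAS2, the lowest, was above 24.7% of genes. The transcript form used by DU145 may be shorter than the longest one.

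Transcript length moved with the groups over all genes, short transcripts being lower in knockdown. For genes of the length of ISG15, IFI6 and BST2 (787, 841 and 1019 bases) the fitted trend was -0.14 in knockdown minus control on the log2 scale, and for OAS3 (6719 bases) it was 0.15. The trend also differed within the groups. In control 1, control 2, knockdown 1 and knockdown 2 it was 0.09, 0.05, -0.02 and -0.12 for IFI6. For OAS3 it was -0.11, -0.04, 0.06 and 0.09 in the same order. With each library's trend removed, the median over the 10 genes was -0.85, 5 of 10 still lay below both controls, and the difference of ISG15 was -0.46, of IFI6 -0.71 and of OAS3 -0.36; any further part of length was not tested. No gene with a row in the table shared exon bases with any of the 10 in GENCODE 29. ISG15, MX1 and OAS1 each share some with an antisense gene that was not analysed here, and the library protocol in the labels names no strand marking step.

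Further interferon-induced genes were followed as lists, in which 0 members passed limma over all genes in either direction. Of 7 IFIT and IFITM genes, which encode RNA-binding and membrane antiviral proteins, 7 had a lower mean, against 51.0% of genes tested. In 6, or 85.7%, both knockdown libraries were under both controls, against 19% of genes tested. The median log2 difference of these 7 genes was -1.05. Against control 1 it was -1.12 in knockdown 1 and -1.56 in knockdown 2, and against control 2 it was -0.44 and -0.83. IFITM2, IFIT2 and IFIT1 were called lower in the authors' deposited table, with adjusted p of 0.00730, 0.0144 and 0.0185. IFITM2 had 797 and 745 in the controls and 434 and 317 in knockdown, so its controls were close, as in ISG20. IFITM1 had 105 and 109 against 47.8 and 8.34 (limma adjusted p = 0.446). Of 46 other interferon-induced genes tested, 35 had a lower mean, 5 had both knockdown libraries under both controls and 2 had them above, with a median of -0.15. These were 10.9% and 4.35% of the list, below the 19% and 18.4% of all genes tested. Against control 1 their median was -0.50 in knockdown 1 and -0.56 in knockdown 2, and against control 2 it was 0.14 and 0.16, so their direction turned with the control.

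Within that list, DHX58, which encodes the RNA sensor LGP2, had 95.5 and 43.7 in the controls and 27.5 and 24.0 in knockdown (limma adjusted p = 0.598). RSAD2, which encodes viperin, had 23.2, 8.05, 7.08 and 5.21 in control 1, control 2, knockdown 1 and knockdown 2 (limma adjusted p = 0.738). GBP1, a guanylate-binding protein, ran the other way, with 41.7 and 18.4 in the controls and 46.0 and 157 in knockdown (limma adjusted p = 0.637). MX2, the neighbour of MX1 on chromosome 21, had 130 and 49.5 in the controls and 65.5 and 29.2 in knockdown, the same order of libraries as OAS1.

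**Figure D3:**
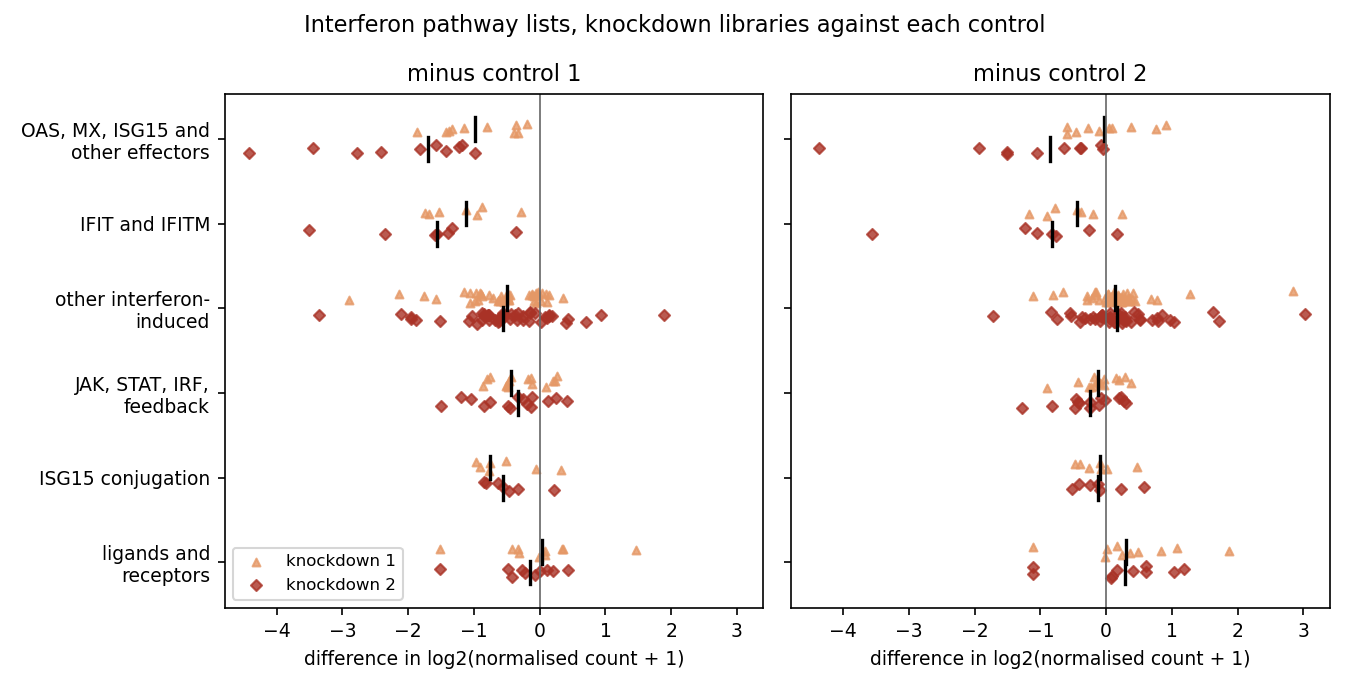
Difference in log2(normalised count + 1) of knockdown 1 (triangles) and knockdown 2 (diamonds) minus control 1 (left) and minus control 2 (right), 1 point per gene, with black bars at list medians. The effector medians are -0.98 and -1.70 on the left and -0.03 and -0.85 on the right, and the medians of the other interferon-induced genes lie below 0 on the left and above it on the right.

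Upstream of these genes, interferon transcripts were at or near 0. IFNA1, IFNB1, IFNK, IFNL1, IFNL2 and IFNL3 had at most 3 reads in any library, and IFNE had 23, 10, 24 and 15 in control 1, control 2, knockdown 1 and knockdown 2. IFNB1 had 2 and 1 reads in the controls and 0 in both knockdown libraries, which is within the limit that a count of 0 allows. IFNG was not analysed here. The receptor genes were present: IFNAR2, a type I receptor chain, had 847 and 636 in the controls and 892 and 971 in knockdown, and IFNLR1, the type III receptor chain, 101 and 59.8 against 128 and 137. Both knockdown libraries were above both controls for these receptor chains, though neither passed limma (adjusted p = 0.737 and 0.687). They were 2 of the 10 ligand and receptor genes tested, a share of 20% against 18.4% of all genes tested. IFNAR1, IFNGR1, IFNGR2 and IL10RB, the other receptor chains tested, had groups that overlapped.

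Of 15 genes of JAK-STAT signalling, interferon regulatory factors and feedback, 11 had a lower mean, against 51.0% of genes tested, with a median of -0.26. Against control 1 that median was -0.44 in knockdown 1 and -0.33 in knockdown 2, and against control 2 it was -0.12 and -0.24. In 8 both knockdown libraries were under both controls, and in 1 they were above. These were 53.3% and 6.67% of the list, against 19% and 18.4% of all genes tested. IRF7, a factor that drives interferon genes, had 535 and 332 in the controls and 294 and 188 in knockdown (limma adjusted p = 0.607). IRF9, a DNA-binding part of the STAT complex, had 523 and 315 against 308 and 228 (limma adjusted p = 0.692). SOCS3, a feedback inhibitor of JAK kinases, had 535 and 361 against 306 and 260 (limma adjusted p = 0.650).

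The partners of the effectors gave smaller differences. Of 7 genes of ISG15 conjugation and removal, 6 had a lower mean, against 51.0% of genes tested, with a median of -0.29. Against control 1 their median was -0.76 in knockdown 1 and -0.55 in knockdown 2, and against control 2 it was -0.09 and -0.13. For knockdown 1 minus control 2 the effectors had -0.03, so the partners were not smaller there. In 4, or 57.1%, both knockdown libraries were under both controls, against 19% of genes tested. HERC5, the main ligase for ISG15, had 326 and 219 in the controls and 166 and 183 in knockdown (limma adjusted p = 0.687). USP18, which removes ISG15 and restrains the receptor, had 660 and 488 against 459.6 and 368, and TRIM25, a ligase that also activates RIG-I, had 3779 and 4331 against 3615 and 3016 (limma adjusted p = 0.708 and 0.751).

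The genes outside the 10 whose pattern was most like theirs were found by distance. Each gene's 4 log2 values were centred, and the Euclidean distance to the median profile of the 10 was taken for 11487 genes with a mean of at least 50. That profile was 1.02 for control 1 and 0.06 for control 2, with 0.03 for knockdown 1 and -0.77 for knockdown 2. The 5 nearest were C10orf10, IFITM3, KCNK3, IRF7 and ODF3B, at distances of 0.201, 0.255, 0.264, 0.290 and 0.380. IFITM3 had 1038, 613, 533 and 345 normalised counts in control 1, control 2, knockdown 1 and knockdown 2, and IRF7 is given above. KCNK3, a potassium channel gene, had 109, 65.6, 59.3 and 36.5 in the same order. C10orf10 had 156, 74.8, 74.4 and 39.6, and ODF3B 109, 62.1, 71.7 and 40.6. Of the 10 themselves, MX1 and ISG15 were the closest to their own median profile, at 0.437 and 0.455, and OAS1 and OAS2 the farthest of the 9 with a mean of at least 50, at 1.30 and 1.01. With 4 libraries this likeness is a description of their order.

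**Figure D4:**
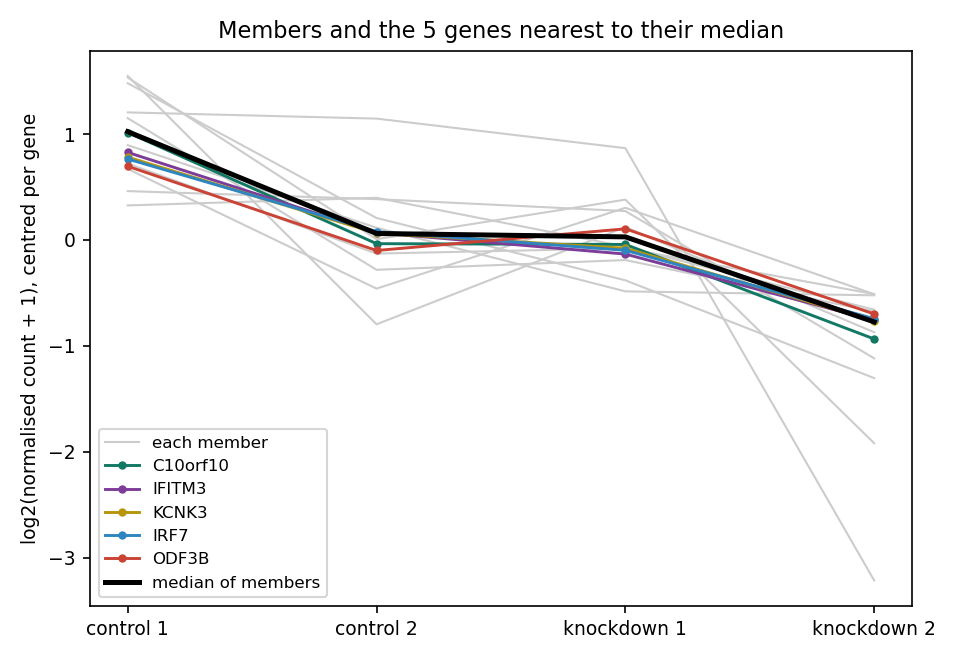
Log2(normalised count + 1) centred per gene, by library, for the 10 effectors (grey), their median (black) and the 5 nearest other genes (colours). The median runs from 1.02 in control 1 to -0.77 in knockdown 2, with control 2 and knockdown 1 at 0.06 and 0.03.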

How the data were processed

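RNA-seq libraries of 2 control and 2 TAZ knockdown samples were analysed from 1 table. Poly-T beads captured mRNA from 0.2 µg of RNA, per the labels' protocols. Per the file headers, the deposited table gives a signal per gene and library (normalised read counts) and DESeq2 columns, which are a mean signal, a score (Wald statistic), p-values and a log2 fold change with standard error. The submitters' processing notes name STAR, DESeq2 and hg19. The read counter and the annotation: not given in the sources used here.

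Dividing each library by its smallest nonzero value gave whole reads for 100% of values (tolerance 0.001 reads). Of 19897 rows, 26 carried symbols turned into dates (0.153 to 0.191% of reads) and were left out. limma (version 3.58.1, R 4.3.3; intensity trend, no replicate block) was run on log2(value + 1) for 17737 genes with a value of at least 1 in at least 2 libraries, with Benjamini-Hochberg adjustment over all of them and a threshold of 0.05. The written design assumed raw counts or normalised values, and the second form applied. The added 1 shrinks a log2 ratio between low values, but a value of 0 can make the difference of log2 means large. For BST2, which has a 0, limma gave -2.35, edgeR -1.24 and DESeq2 -1.30. The fit was tested on simulated data. edgeR (4.0.16) on the recovered reads called 8 genes higher and 2 lower, and DESeq2 (1.42.0) 57 and 11. Lengths and exon overlaps came from GENCODE 29, promoters from RefSeq (GRCh38.p14).

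The effectors and lists were chosen with earlier results of these data known. Named genes were the 10, WWTR1, per list the 3 with the smallest limma p (none having passed) and those called in the authors' deposited table, and the 5 nearest by pattern. MX2, the interferons and markers were named after their values were seen. Some genes of these lists are not reported here.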

Additional observations from a re-analysis of the deposited data

How the results depend on the processing

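The 10 effectors gave a limma count of 0 past the threshold in every alternative run except the replicate block, where 1 passed (OASL, adjusted p = 0.0128); over all alternatives its adjusted p ran from 0.0128 to 0.9999. Over all genes tested, same-numbered libraries of the groups did not deviate together (correlation across genes of -0.04). Among the 10 effectors, control 2 was below control 1 in 9 and knockdown 2 below knockdown 1 in 10, the same direction. Whether same-numbered libraries were paired cannot be told from these values. The block took the count over all genes from 2 to 7. That count was 0 without the intensity trend, 10 with edgeR and 68 with DESeq2, and 0 without any 1 library (0 to 0). The median over the effectors ran from -1.49 (without control 2) to -0.38 (without knockdown 2), and was -0.69 without control 1 and -1.18 without knockdown 1. The number below both controls ran from 5 to 10, at 10 without control 2 and without knockdown 1. Leaving out a library makes this rule easier to meet. Without control 2 it asks for both knockdown libraries below control 1, as in 36.8% of genes tested. Without knockdown 1 it asks for knockdown 2 below both controls, as in 34.9%, against 19% with all libraries. Leaving out libraries turned OAS2 (-1.92 to 0.42, positive without control 1) and OAS3 (-0.77 to 0.36, positive without control 1 and, at 0.20, without knockdown 2). Pseudocount, filter, scaling, count model and length trend turned no gene's direction. The setting with values of 0 at the limit of 3 reads was chosen after the data were seen. Depth limits BST2, at 22 reads or fewer in every library. It also limits OAS1, at 17 reads in knockdown 2, and OAS2, at 22 reads in control 2 and 23 in knockdown 2.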
